A study of Mus musculus with 15 samples.

Results

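The genes described here encode the enzymes and the transporter that make glucose from small precursors and that take in fructose, measured by RNA-Seq in mouse kidney. They are Pck1, Pck2, Pcx, Fbp1, G6pc, Slc37a4 and Khk, taken by symbol, so 7 of the 47069 genes in the table. All 7 had a row and all 7 passed the filter on low values. The series held 12 libraries of single proximal tubules dissected from the kidney and labelled PTS2, which form the sets m1, m2 and m3 of 4 numbered tubules each, and 3 libraries of whole kidney. Every library came from male C57BL/6 mice aged 2 months, and the labels name no treatment, genotype or transgene for any group. They do not say what the letter m or the tubule number stands for, or which libraries share a mouse, so the p-values below measure the spread between these libraries, part of which may be technical. Values are TPM, which count transcripts out of a fixed total after scaling to transcript length, so levels can be compared between genes. Because TPM keep no read depth, the counting error of a value could not be estimated.

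Gluconeogenesis runs glycolysis backwards and needs its own enzymes where glycolysis is irreversible. Pyruvate carboxylase (Pcx) turns pyruvate into oxaloacetate in the mitochondrion, and phosphoenolpyruvate carboxykinase turns oxaloacetate into phosphoenolpyruvate, as a cytosolic form (Pck1) and a mitochondrial form (Pck2). Fructose bisphosphatase (Fbp1) reverses phosphofructokinase. Glucose-6-phosphatase (G6pc) frees glucose inside the endoplasmic reticulum, to which Slc37a4 carries the substrate, and the glucose leaves the cell through transporters such as Slc2a2. Ketohexokinase (Khk) phosphorylates fructose, which is then cleaved and passes, with triokinase (Tkfc) at a later step, to the same triose phosphates. In the kidney, the proximal tubule is the known site of both pathways.

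The tubules carried proximal markers and little RNA of most other cell types. The summed level of Lrp2, Cubn, Slc34a1 and Slc27a2 was 12640.0 ± 1442 TPM over the PTS2 tubules (SD, n = 12) and 9293 ± 517 TPM (SD, n = 3) in whole kidney. By limma, Slc27a2 was higher in PTS2 than in whole kidney, by 0.98 in log2(TPM + 1) (adjusted p = 1.96e-05). Lrp2 (−0.043), Cubn (−0.045) and Slc34a1 (−0.49) did not pass. The S1 markers Slc5a2 and Slc5a12 together stood at 0.80 ± 0.51 TPM over the PTS2 tubules (SD, n = 12) and at 739.8 ± 40.7 TPM over the whole kidney libraries (SD, n = 3). The S2 pair Slc22a6 and Slc22a8 summed to 368 to 1149 TPM in the tubules and 719 to 781 TPM in whole kidney. Within this pair, Slc22a8 was lower in PTS2 (−2.21, limma adjusted p = 0.00199) and Slc22a6 did not pass (0.17, adjusted p = 0.703). The S3 markers Slc7a13, Slc22a7 and Slc5a1 summed to 2054 to 3772 TPM in the tubules against 988 to 1254 TPM in whole kidney. Of these, Slc22a7 (1.84, limma adjusted p = 3.78e-05) and Slc7a13 (1.22, adjusted p = 8.98e-07) were higher in PTS2, and Slc5a1 did not pass (0.27, adjusted p = 0.125). In tubule 3 of set m3 the thick ascending limb markers Umod, Slc12a1, Kcnj1 and Cldn16 summed to 1428 TPM, against 4.57 to 55.0 TPM in the other 11 tubules and 2514 ± 146 TPM (SD, n = 3) in whole kidney. Results that change without that library are given with and without it.

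Of the 7 genes, 6 were abundant in PTS2 and Pck2 was not. Fbp1 was the highest and ranked 31 among all genes by its mean in PTS2, followed by Pck1 at rank 68, Khk at 120, Slc37a4 at 337, Pcx at 527 and G6pc at 550. Pck2 ranked 8619. The ranges of neighbours in this order did not meet down to Slc37a4, while Slc37a4, Pcx and G6pc overlapped each other across tubules.

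Fbp1 stood at 3427, 3586, 3365 and 3484 TPM in tubules 1 to 4 of set m1, at 3158, 3123, 3129 and 3218 TPM in m2, at 3125, 3216, 3190.2 and 3444 TPM in m3, and at 3117.5, 2828 and 3078 TPM in whole kidney. Every tubule lay above every whole kidney library, but by little. The coefficient of variation of Fbp1 over the 12 tubules was 4.95%, which only 2.30% of the 6446 genes that averaged 10 TPM or more undercut, and their median was 13.3%.

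Pck1 stood at 1840.3, 1412, 1588 and 1949.8 TPM in m1, at 1918, 2031, 1999 and 2276 TPM in m2, at 1602, 1636, 1686 and 2375 TPM in m3, and at 1367, 1571 and 2865 TPM in whole kidney. The whole kidney libraries spread further than the tubules and enclosed all 12 of them. Pck2, its mitochondrial counterpart, stood at 4.58, 3.69, 3.49 and 2.60 TPM in m1, at 5.41, 5.07, 3.74 and 4.03 TPM in m2, at 4.54, 4.98, 3.42 and 2.83 TPM in m3, and at 5.18, 6.98 and 6.34 TPM in whole kidney. The cytosolic form exceeded the mitochondrial one in every library, with a ratio of Pck1 to Pck2 between 329 and 839 in the tubules (mean 488 ± 162, SD, n = 12) and between 225 and 452 in whole kidney. In the GRCm38.p6 annotation, 53 of the 7806 exonic bases of Pck2 lie under the antisense gene Gm10876, and none of the other 6 genes shares exonic bases with another gene.

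Khk, the entry to fructose breakdown, stood at 1195, 1257, 1267 and 1072 TPM in m1, at 1186, 1147, 1122 and 1085 TPM in m2, at 1259.9, 1231, 1211 and 1166 TPM in m3, and at 658, 757 and 658 TPM in whole kidney. It was nearly as even as Fbp1 among the tubules, with a coefficient of variation of 5.63%. The table gives a single value per gene, so the liver and kidney type transcript of Khk and its widespread alternative are not separated.

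Slc37a4 stood at 473, 489, 493 and 509.9 TPM in m1, at 449, 427, 466 and 494 TPM in m2, at 445.5, 440.1, 461 and 623 TPM in m3, and at 439, 496 and 522 TPM in whole kidney. Pcx stood at 331, 255, 289.6 and 353 TPM in m1, at 317, 286, 289.8 and 371 TPM in m2, at 298, 254, 268 and 459 TPM in m3, and at 281, 319 and 312 TPM in whole kidney. For both genes tubule 4 of m3 was the highest library of all 15.

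G6pc stood at 389, 356, 399.95 and 637 TPM in m1, at 212, 232, 332 and 423 TPM in m2, at 121, 120.3, 121 and 256 TPM in m3, and at 589.7, 299.7 and 241 TPM in whole kidney. No other of the 7 varied as much: its coefficient of variation of 51.4% exceeded that of 98.6% of the genes that averaged 10 TPM or more. The other abundant members lay between 4.95% and 18.6%. Without tubule 3 of m3 the mean of G6pc over the tubules was 316 TPM in place of 299.9 TPM, against an SD between tubules of 154 TPM, and none of the 7 means moved by more than its SD.

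**Figure D1:**
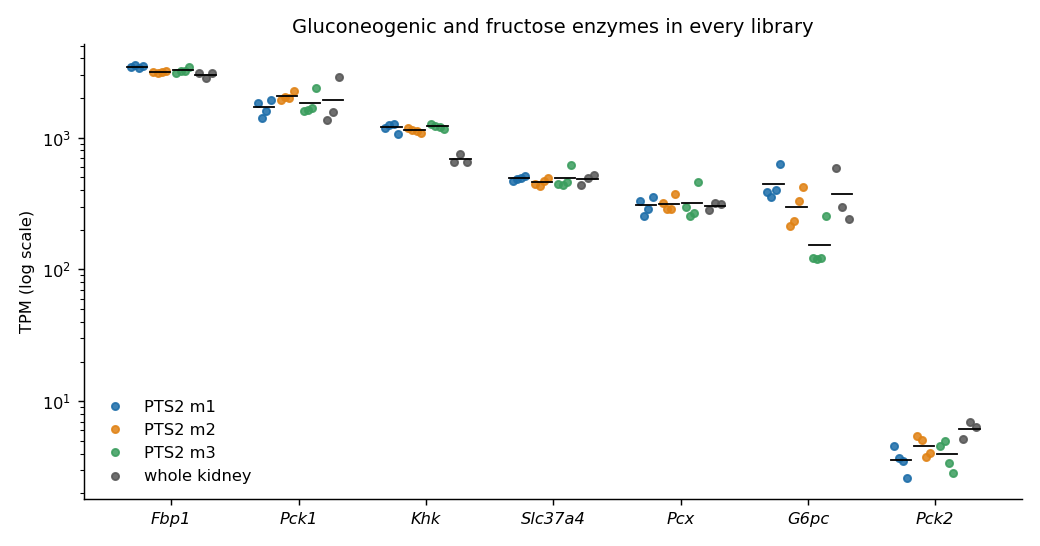
TPM on a log scale for the 7 genes in every library, with each set of PTS2 tubules and whole kidney in its own colour, 1 point per library and a bar at each group mean. Khk is higher in all 12 tubules than in whole kidney, G6pc spreads from 120.3 to 637 TPM among the tubules, and Pck2 lies below 7 TPM in all 15 libraries.

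The genes lie on 7 different chromosomes. In the GRCm38.p6 annotation they are at chr2:173153073-173159274 (Pck1), chr5:30921436-30931248 (Khk), chr9:44396946-44402966 (Slc37a4), chr11:101367716-101377903 (G6pc), chr13:62864753-62888298 (Fbp1), chr14:55540263-55550020 (Pck2) and chr19:4510472-4621752 (Pcx). The RefSeq promoter table of the same build matched all 7 by symbol, with 10 upstream windows of 250 bases in all. The windows before G6pc, Pck1 and Khk are shown because G6pc differed between sets, Khk differed from whole kidney, and Pck1 was, with G6pc, highest in tubule 4 of each set. They span chr11:101367466-101367715, chr2:173152823-173153072 and chr5:30921309-30921558, all on the forward strand, and end at the base before the transcription start in the RefSeq table, which for Khk lies inside the annotated span of the gene. Capitals mark matches on either strand to the motifs searched.
G6pc: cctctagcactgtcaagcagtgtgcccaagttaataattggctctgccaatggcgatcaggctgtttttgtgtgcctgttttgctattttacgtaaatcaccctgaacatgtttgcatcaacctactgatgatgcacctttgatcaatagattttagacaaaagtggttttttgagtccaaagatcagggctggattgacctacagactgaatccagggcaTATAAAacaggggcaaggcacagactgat
Pck1: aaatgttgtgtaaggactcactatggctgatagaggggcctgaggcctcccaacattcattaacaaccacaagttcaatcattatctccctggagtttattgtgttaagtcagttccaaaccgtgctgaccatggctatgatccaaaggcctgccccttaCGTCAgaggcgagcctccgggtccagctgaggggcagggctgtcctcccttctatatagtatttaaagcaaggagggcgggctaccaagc
Khk: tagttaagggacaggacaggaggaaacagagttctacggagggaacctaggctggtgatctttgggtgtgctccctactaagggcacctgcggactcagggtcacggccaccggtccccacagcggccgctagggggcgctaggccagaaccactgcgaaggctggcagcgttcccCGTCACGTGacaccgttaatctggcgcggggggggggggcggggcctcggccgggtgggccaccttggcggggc
G6pc has a TATA box that begins 29 bases before the start. Pck1 has a cAMP response element core 90 bases before the start. Khk has the core at 74 bases before the start and an E-box that overlaps it at 71. The cAMP response element core was searched as TGACG and occurs in 17.77% of all 32851 mouse windows of this length and in 4 of the 10 windows of the 7 genes. These 4 are the windows of Pck1 and Khk and 2 overlapping windows of Slc37a4 that share a site, so they are not independent. The forkhead motif TGTTTAC occurs in 3.166% of all windows and in 0 of the 10. The TATA box, TATAAA, occurs in 12.37% of all windows and in 2 of the 10. The E-box CACGTG occurs in 6.021% of all windows and in 2 of the 10. These matches are letters in a window and no measurement of binding.

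Against whole kidney, Khk was higher in PTS2, Pck2 was lower, and the other 5 genes did not pass the test. Differences are on the scale of log2(TPM + 1), which understates the change of low genes such as Pck2, and were tested over all genes with limma and Benjamini-Hochberg adjustment at 0.05. Khk averaged 1183 ± 66.6 TPM over the PTS2 tubules (SD, n = 12) and 691 ± 57.1 TPM over the whole kidney libraries (SD, n = 3), a 1.71-fold excess (log2 difference 0.78 ± 0.07 SE, limma adjusted p = 1.24e-07). Pck2 averaged 4.03 ± 0.89 TPM and 6.17 ± 0.91 TPM, or −0.52 ± 0.18 on the log2 scale (SE, limma adjusted p = 0.028), with 11 of 12 tubules below all 3 whole kidney libraries. So 1 of the 7 was called higher, where 8.69% of all 12039 genes tested were, and 1 was called lower, where 38.2% were. In either direction 46.9% of genes were called. The lower call of Pck2 did not hold without whole kidney replicate 2 (adjusted p = 0.114) or replicate 3 (adjusted p = 0.0788). In bulk libraries such as these, fewer cells of a type and less RNA per cell cannot be told apart.

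For the other 5 genes no difference from whole kidney passed. Fbp1 differed by 0.13 ± 0.06 (SE, limma adjusted p = 0.102), Slc37a4 by −0.02 ± 0.10 (adjusted p = 0.899), Pcx by 0.03 ± 0.16 (adjusted p = 0.891), Pck1 by 0.005 ± 0.20 (adjusted p = 0.986) and G6pc by −0.41 ± 0.46 (adjusted p = 0.493), all on the log2 scale by limma. Fbp1 and Khk were the 2 members with every tubule above every whole kidney library, as 5.76% of all genes tested were. None of the 7 had every tubule below, as 32% of genes had. The median difference over all genes tested was −0.27, and that of the 7 genes was 0.005. Rescaling the libraries by the median of their ratios moves the median of all genes to −0.003, and under it Fbp1 passed as higher (0.42, adjusted p = 0.00173), Khk stayed called at 1.07 and Pck2 did not pass (−0.28, adjusted p = 0.224). Under quantile normalization Pck2 changed sign (0.21, adjusted p = 0.323) and Khk was still higher by 0.62 (adjusted p = 1.76e-06).

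Of the 8 genes other than Khk listed for fructose and polyol metabolism, 3 were called higher in PTS2, where 8.69% of all genes were, 1 was called lower, where 38.2% were, and 4 did not pass, with a median log2 difference of 0.18 against −0.27 for all genes. Slc5a10, a sodium-coupled transporter of fructose and mannose, averaged 325 ± 49.9 TPM over the PTS2 tubules (SD, n = 12) and 144.5 ± 7.92 TPM over the whole kidney libraries (SD, n = 3), a 2.25-fold excess with no overlap (log2 difference 1.15 ± 0.14 SE, limma adjusted p = 3.02e-06). Slc2a5, the fructose transporter GLUT5, was 1.80-fold higher (0.80 ± 0.24 SE, limma adjusted p = 0.0121), with 11 of 12 tubules above all whole kidney libraries. Tkfc was 1.23-fold higher (0.29, limma adjusted p = 0.0181). Like Slc5a10, it had all 12 tubules above all 3 whole kidney libraries, as 5.76% of all genes tested had. This smaller call of Tkfc rested on single libraries. Tkfc did not pass without whole kidney replicate 1 (0.0509) or 3 (0.0873). Akr1b3, the aldose reductase that starts the polyol route, was the gene called lower (−0.77, limma adjusted p = 0.00192). The counts were 5 higher and 1 lower under median-of-ratios rescaling and 3 higher and 2 lower under quantile normalization.

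Ratios along the fructose route differed between tubules and whole kidney. Khk exceeded Tkfc by 9.82-fold to 13.8-fold in the tubules and by 7.89-fold to 8.39-fold in whole kidney. The ratio of Khk to Fbp1 was 0.36 ± 0.03 (SD, n = 12) and 0.23 ± 0.03 (SD, n = 3). Neither of these ratios overlapped between tubules and whole kidney, but how many other gene pairs separate so was not counted.

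Of 13 listed glycolytic genes that oppose the 7, 10 were tested and 7 were called lower in PTS2, where 38.2% of all genes were, and none higher, with a median log2 difference of −0.93. Hk1, the hexokinase of most tissues, was at 0.01 to 10.1 TPM in the tubules and 43.5 to 50.2 TPM in whole kidney (−4.56 ± 0.53 SE, limma adjusted p = 2.03e-06). Its highest tubule was tubule 3 of m3, the one with thick ascending limb markers, and the next was at 1.76 TPM. Pkm, the muscle type pyruvate kinase, was at 7.35 to 54.6 TPM and 160.2 to 172 TPM (−2.74 ± 0.44 SE, limma adjusted p = 8.75e-05), again with its highest tubule in m3 number 3. The 3 phosphofructokinase genes Pfkm, Pfkp and Pfkl were lower by 1.24, 1.08 and 0.78 on the log2 scale, but Pfkp did not pass without any 1 of the 3 whole kidney libraries (adjusted p from 0.0672 to 0.133), without m1 number 1 or 3, m2 number 3 or 4 or m3 number 2 (0.0552 to 0.0693) or under either rescaling. The 3 that did not pass were the liver type pyruvate kinase Pklr (−0.38, limma adjusted p = 0.205), Pfkfb1 (0.36, adjusted p = 0.295) and Pfkfb4 (0.34, adjusted p = 0.233). Glucokinase, Hk2 and Hk3 were below the filter, and glucokinase was listed at 0 in 10 of 12 tubules. The counts without tubule 3 of m3 were again 7 lower and none higher, under median-of-ratios rescaling 5 lower and 1 higher, and under quantile normalization 5 lower and 2 higher.

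For the steps that both directions use, the called differences were small. Of 7 such genes, Aldoa (−0.36), Eno1 (−0.24) and Pgk1 (−0.20) were called lower, where 38.2% of all genes were. None was called higher, where 8.69% were. Under median-of-ratios rescaling 2 were called higher and none lower, and under quantile normalization none higher and 4 lower. Of 19 genes that bring lactate, pyruvate, glycerol and amino acids into the pathway, 4 were called higher and 6 lower by limma. Of all genes, 8.69% were called higher and 38.2% lower. The entry genes called higher were the alanine aminotransferase Gpt (0.95, adjusted p = 0.00376), the D-lactate dehydrogenase Ldhd (0.77, adjusted p = 7.96e-06), Ldha (0.38) and the pyruvate carrier subunit Mpc2 (0.33). Those lower included the cytosolic aspartate aminotransferase Got1 (−1.62, adjusted p = 1.96e-06), Got2 (−0.59), Glud1 (−0.33) and Ldhb (−0.42), which did not pass without whole kidney replicate 3 (adjusted p = 0.0579). The direction of this list depended on the scaling, with 12 higher and 1 lower under median-of-ratios rescaling and 5 and 5 under quantile normalization. Got1 was the gene still lower in the first of these.

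The related forms Fbp2 and G6pc3 stayed below Fbp1 and G6pc in every library, though G6pc exceeded G6pc3 by as little as 2.17-fold in set m3. Fbp2, the muscle form of fructose bisphosphatase, was lower in PTS2 at 18.2 ± 3.76 TPM (SD, n = 12) against 33.3 ± 5.92 TPM (SD, n = 3), with no overlap (−0.85 ± 0.19 SE, limma adjusted p = 0.00155), and Fbp1 exceeded it 131-fold to 288-fold in the tubules. G6pc3, the widely expressed glucose phosphatase, was at 51.5 to 58.3 TPM in the tubules and 58.3 to 58.8 TPM in whole kidney. It did not pass (−0.08, limma adjusted p = 0.277), and under median-of-ratios rescaling it was called higher (0.21, adjusted p = 0.0174). Slc37a3 did not pass (0.15, limma adjusted p = 0.467). It was called higher under median-of-ratios rescaling (0.43, adjusted p = 0.0353) and under quantile normalization (0.54, adjusted p = 0.00746). G6pc2, Slc37a1 and Slc37a2 were below the filter. Of the glucose transporters, Slc2a2 was 2.40-fold higher in whole kidney, at 118 ± 5.35 TPM (SD, n = 3) against 49.3 ± 14.0 TPM (SD, n = 12) in the tubules (−1.29 ± 0.23 SE, limma adjusted p = 2.16e-04), and Slc2a1 was 3.62-fold higher (−1.78 ± 0.17 SE, limma adjusted p = 2.66e-07). All 12 tubules lay below whole kidney for both, as for Fbp2 and for 32% of all genes tested. Both transporters stayed lower under either rescaling.

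Genes listed as regulators of gluconeogenic transcription were mixed. The list also holds signalling genes and the pyruvate dehydrogenase kinases Pdk2 and Pdk4, which do not themselves regulate transcription. Of 23 listed, 21 were tested. Of these, 3 were called higher, where 8.69% of all genes were, and 11 lower, where 38.2% were. The median of the 21 was −0.56 against −0.27 for all genes. The coactivator Ppargc1a was at 6.66 to 15.4 TPM in the tubules and 49.4 to 52.4 TPM in whole kidney (−2.22 ± 0.23 SE, limma adjusted p = 5.07e-07). The glucagon receptor Gcgr was at 1.64 to 15.04 TPM and 27.9 to 31.9 TPM (−2.25 ± 0.48 SE, limma adjusted p = 0.00120), with its highest tubule again m3 number 3. The glucocorticoid receptor Nr3c1 was lower by 0.99. Mlxipl (0.76), Cebpb (0.73) and Klf15 (0.47) were called higher by limma. The transcription factor Hnf4a did not pass (−0.15). The counts were 3 higher and 6 lower under median-of-ratios rescaling and 4 and 5 under quantile normalization. Of all 12039 genes tested, median-of-ratios rescaling called 5231, of which 2607 were higher. Quantile normalization called 6011, of which 3863 were higher.

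**Figure D2:**
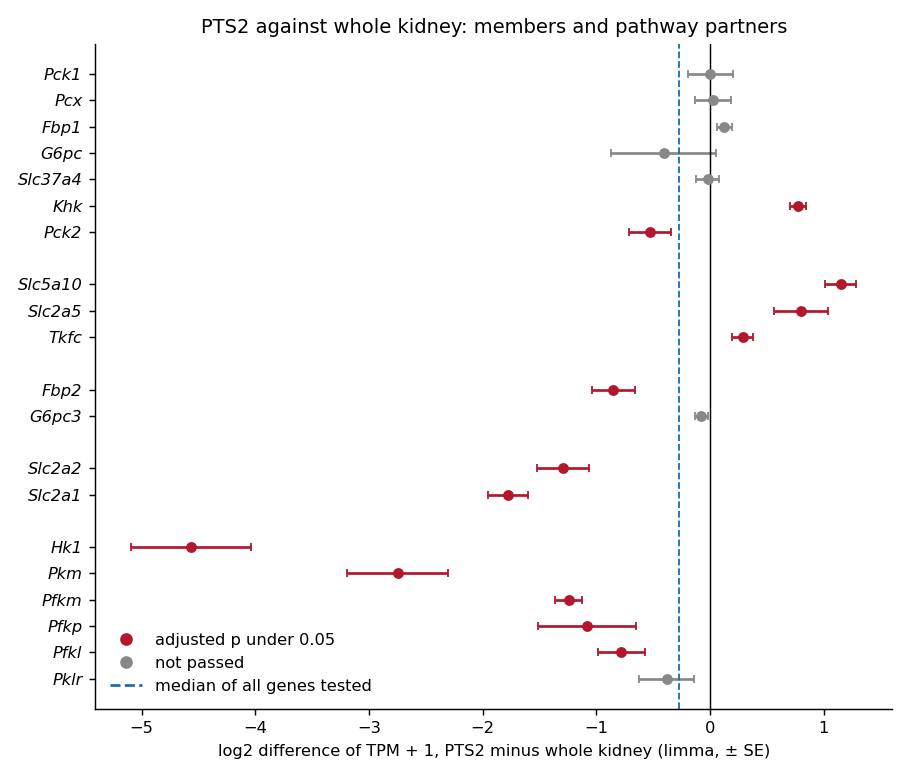
Differences of log2(TPM + 1) between PTS2 and whole kidney (limma, ± SE) for the 7 genes and for listed partners, red where the adjusted p was under 0.05 and grey otherwise, with a dashed line at the median of all genes tested (−0.27). Khk and the fructose transporters lie to the right of 0, and of the genes plotted Hk1, Pkm, Slc2a1 and Slc2a2 lie furthest to the left.

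Among the 3 sets of tubules, G6pc was the member that differed. It averaged 446 ± 129 TPM over the 4 tubules of m1, 299.6 ± 97.4 TPM over those of m2 and 155 ± 67.4 TPM over those of m3 (SD, n = 4 for each set). All 4 tubules of m3 lay below all 4 of m1, as held for 2.67% of the 11300 genes tested, and m2 overlapped both. The difference of m3 from m1 was −1.57 ± 0.28 on the log2 scale (SE, limma adjusted p = 0.00903), a 2.88-fold higher mean in m1. The contrast m3 minus m2 was −0.98 ± 0.28 (SE, limma adjusted p = 0.120) and m2 minus m1 was −0.59 ± 0.28 (SE, limma adjusted p = 0.484). These fits took no account of the tubule number, which the labels do not explain. At each number G6pc fell from m1 to m2 and from m2 to m3, and both contrasts were called with the number as a block. Over all 3 sets the F test gave an adjusted p of 0.0179 by limma, where 3.02% of genes were called, and the 3 contrasts called 0.54% (m2 minus m1), 3.17% (m3 minus m1) and 1.97% (m3 minus m2) of genes. In the direction of G6pc, m3 minus m1 called 0.938%. With each tubule left out in turn, m3 minus m1 stayed called, between −1.83 and −1.38 with adjusted p from 0.00152 to 0.0376. The F test did not pass without m3 number 1 (adjusted p = 0.0703), 2 (0.0668) or 3 (0.0656), the last being the library with thick ascending limb markers. Without m3 number 4, m3 minus m2 passed (−1.25, adjusted p = 0.0203). The S2 marker sum was 809.6 ± 233 TPM for m1, 588 ± 250.2 TPM for m2 and 560.3 ± 311 TPM for m3 (SD, n = 4 for each set), and neither Slc22a6 nor Slc22a8 passed among the sets (limma adjusted p = 0.495 and 0.675); its part in the result was not tested.

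The other 6 genes did not pass among the sets. Their adjusted p over the 3 sets by limma ran from 0.366 (Fbp1) to 0.985 (Pcx), and the log2 difference of m3 from m1 lay between −0.10 (Fbp1) and 0.10 (Pck2). The ratio of G6pc to its partner Slc37a4 was 0.90 ± 0.23 (SD, n = 4) in m1, 0.65 ± 0.17 (SD, n = 4) in m2 and 0.30 ± 0.07 (SD, n = 4) in m3, beside 1.34, 0.604 and 0.461 in whole kidney replicates 1 to 3. The ratio to Pck1 was 0.26 ± 0.05, 0.14 ± 0.04 and 0.08 ± 0.02 (SD, n = 4 each) in m1, m2 and m3. In whole kidney replicates 1 to 3 it was 0.431, 0.191 and 0.084. For this ratio the 4 tubules of each set did not overlap those of another, but how many other gene pairs behave so was not counted. G6pc exceeded G6pc3 in every library, by 6.48-fold to 11.4-fold in m1 and by 2.17-fold to 4.39-fold in m3.

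Of the 21 tested genes of the regulator list, 2 were called over the sets, Irs2 and Pdk4, where 3.02% of all genes were, and 19 did not pass. Irs2 carries the insulin signal. It ran from 2.75 to 6.18 TPM in m1, from 9.86 to 14.2 TPM in m2 and from 19.0 to 23.9 TPM in m3. The sets did not overlap, but how many of all genes separate so was not counted. By limma, m3 minus m1 was 2.17 ± 0.18 (SE, adjusted p = 3.98e-05) and m2 minus m1 was 1.27 ± 0.18 (SE, adjusted p = 0.00492). The m3 minus m2 difference of 0.91 passed (adjusted p = 0.0223) but did not without any 1 of 6 tubules, which were m2 numbers 2 to 4 (adjusted p from 0.0659 to 0.0823) and m3 numbers 1, 3 and 4 (0.0583 to 0.0821). Pdk4, a kinase that shuts pyruvate dehydrogenase, ran from 6.17 to 15.3 TPM in m1, from 13.0 to 19.0 TPM in m2 and from 5.14 to 7.60 TPM in m3 (m3 minus m2 −1.31 ± 0.22 SE, limma adjusted p = 0.00664). In whole kidney replicates 1 to 3 Irs2 stood at 6.53, 19.7 and 36.1 TPM and G6pc at 589.7, 299.7 and 241 TPM. The whole kidney library with the least Irs2 held the most G6pc, as set m1 did among the tubules, which is a description of 3 libraries and not a test. Pck1 rose where G6pc fell in these libraries, at 1367, 1571 and 2865 TPM, and did not pass among the sets.

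**Figure D3:**
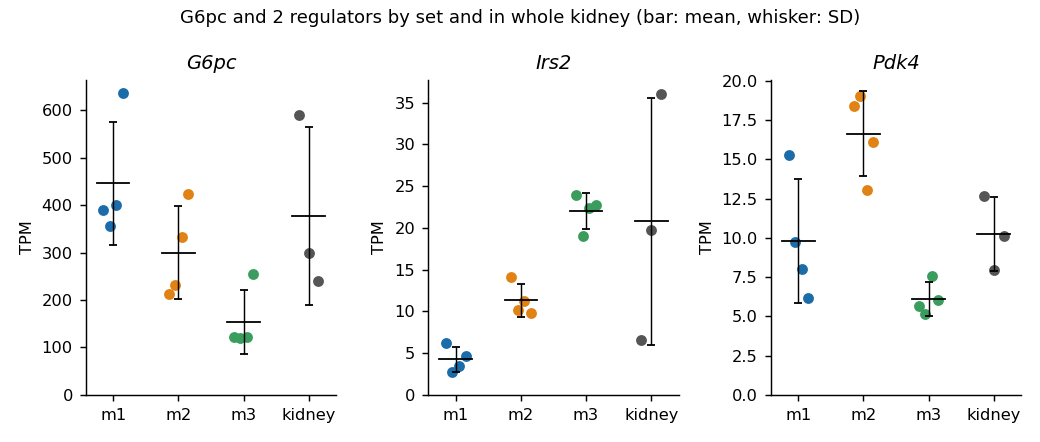
TPM of G6pc, Irs2 and Pdk4 in the 4 tubules of each set and the 3 whole kidney libraries (points), with the mean (bar) and SD (whisker). Among the sets G6pc is lowest in m3 and Irs2 highest there, and the whole kidney libraries spread as widely as the sets for G6pc and Irs2.

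Outside the regulators, few listed genes differed among sets. Slc2a1 was higher in m3 than in m1 by 0.61 (limma adjusted p = 0.0125), or 0.58 with adjusted p = 0.0517 without m3 number 3. Akr1b3 was higher in m3 than in m2 by 0.53 (limma adjusted p = 0.0374) but did not pass without any 1 of 8 tubules, numbers 2 to 4 of m3, numbers 1 to 4 of m2 and number 3 of m1 (adjusted p from 0.0546 to 0.116). None of the 7 shared steps, 10 opposing glycolytic genes or 3 isoenzymes tested was called over the sets.

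In all 3 sets the tubule numbered 4 was the highest of the 4 tubules for G6pc, Pcx, Pck1 and Slc37a4, 4 of the 7, where 4.79% of genes behave so. It was the lowest in each set for Khk, 1 of the 7, where 4.49% of genes do. G6pc in number 4 exceeded the mean of the other 3 tubules of its set by 0.85 ± 0.20 on the log2 scale (SD, n = 3 sets), or 1.80-fold, and the excess was 0.45 ± 0.26 for Pcx, 0.34 ± 0.17 for Pck1 and 0.23 ± 0.21 for Slc37a4 (SD, n = 3 sets each). Fbp1 differed by 0.05 ± 0.06, Khk by −0.13 ± 0.07 and Pck2 by −0.36 ± 0.16 (SD, n = 3 sets each). In a limma fit of the 4 numbers with the set as a term, G6pc (adjusted p = 0.0102) and Pcx (adjusted p = 0.0399) were called, 2 of the 7, where 2.71% of 11300 genes were. Pck1 (0.130), Pck2 (0.178), Slc37a4 (0.220), Khk (0.340) and Fbp1 (0.722) were not called by limma, in adjusted p. G6pc passed with each tubule left out, at adjusted p from 0.00206 to 0.0496. Pcx passed in only 2 of the 12 such fits, those without m2 number 2 and m3 number 4 (adjusted p over the 12 from 0.0386 to 0.103). With no filter on low values neither gene passed (0.117 and 0.216).

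Several partners also differed among the numbers. The p-values are those of the F test over the 4 numbers, which does not set number 4 against the others. Slc2a2, through which glucose leaves the cell, was at 78.4, 60.5 and 70.2 TPM in number 4 of m1, m2 and m3, above the 35.1 to 52.0 TPM of the other 9 tubules (limma adjusted p = 0.00943). Slc2a5, which brings fructose in, was lowest in number 4 of each set, at 70.8, 98.1 and 126 TPM, though number 4 of m3 overlaps other sets (limma adjusted p = 0.0142). Pfkp was at 8.52, 14.2 and 9.41 TPM in number 4 against 18.8 to 42.7 TPM elsewhere (limma adjusted p = 0.0106), or adjusted p = 0.0595 without m1 number 4 and 0.0541 without m3 number 4. Ldhb averaged 1884 ± 147 TPM in number 4 and 1314 ± 39.0, 1464 ± 108 and 1628 ± 81.5 TPM in numbers 1 to 3 (SD, n = 3 sets each), with a limma adjusted p of 0.00943. Akr1a1 averaged 3986 ± 458 TPM in number 4 and 2834 ± 309.5, 3142 ± 435 and 3463 ± 519.9 TPM in the others (SD, n = 3 sets each). Its limma adjusted p was 0.0116, with adjusted p = 0.0514 without m1 number 4 and 0.0537 without m2 number 1. Of the listed genes, 10 were called among the numbers by limma, where 2.71% of all 11300 genes were. They were 2 of 10 opposing glycolytic genes, 3 of 19 entry genes, 2 of 8 fructose and polyol genes, 1 of 2 glucose transporters and 2 of 21 regulators. None of the 7 shared steps or 3 isoenzymes tested was called.

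Some markers of segments, and the collecting duct marker Aqp3, differed among the numbers too. The S2 sum of Slc22a6 and Slc22a8 was 1022 ± 128 TPM in number 4 and 481 ± 193, 474 ± 129 and 634 ± 166 TPM in numbers 1 to 3 (SD, n = 3 sets each). The S3 sum of Slc7a13, Slc22a7 and Slc5a1 was 2478 ± 371 TPM in number 4 and 3669 ± 90.0, 3218 ± 178 and 2960.0 ± 268 TPM in the others (SD, n = 3 sets each). Slc22a8, Slc22a7 and Slc22a6 were called among the numbers by limma (adjusted p = 0.0102, 0.0116 and 0.0121). The S3 markers Slc7a13 (adjusted p = 0.105) and Slc5a1 (adjusted p = 0.265) were not called by limma, and no S2 or S3 marker was at 0 in any tubule. The S1 sum was 0.67 ± 0.72 TPM in number 4 (SD, n = 3 sets), so that S1 markers stayed near 0. Slc34a1, a phosphate transporter of the whole proximal tubule, was called as well (limma adjusted p = 0.0142). The sum of the collecting duct principal cell markers Aqp2, Aqp3 and Scnn1g was 34.0 ± 14.6 TPM in number 4 and 12.5 ± 4.55, 15.1 ± 3.09 and 17.5 ± 3.10 TPM in numbers 1 to 3 (SD, n = 3 sets each), beside 636 ± 138 TPM in whole kidney (SD, n = 3). Of these, Aqp3 was called among the numbers (limma adjusted p = 0.0270), Aqp2 was not (adjusted p = 0.914) and Scnn1g was below the filter. The part of these markers in the differences of G6pc and Pcx was not tested.

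**Figure D4:**
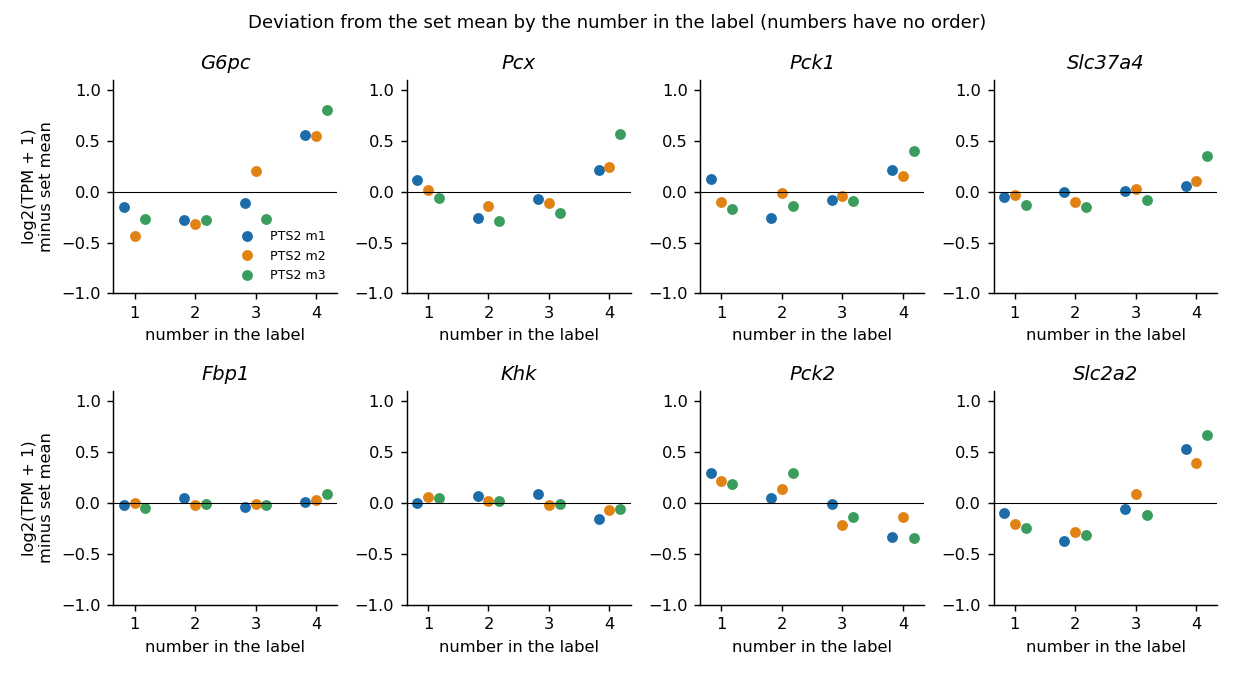
Deviation of log2(TPM + 1) from the mean of the set for each tubule, by the number in its label, for the 7 genes and Slc2a2, with 1 colour per set. The 3 points of number 4 lie above 0 for G6pc, Pcx, Pck1, Slc37a4 and Slc2a2, close to 0 for Fbp1, and below 0 for Khk and Pck2.

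Once the set means were removed, some of the 7 genes varied together over the 12 tubules and others in opposition. As a description over tubules that share these sets and numbers, Pearson's r of the deviations was 0.92 for Pck1 with Pcx, 0.86 for G6pc with Slc37a4, 0.85 for G6pc with Pck1 and 0.82 for G6pc with Pcx. It was −0.80 for G6pc with Khk and −0.81 for G6pc with Pck2. With the set means left in, G6pc with Pck1 gave 0.28. The r of 0.28 and of 0.85 for this pair differ only in whether the set means were removed. Among the sets G6pc passed and Pck1 did not, and the share of each gene's set means in the lower r was not tested.

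The genes most like each member were taken by Pearson's r of log2(TPM + 1) over the 12 tubules, among the genes that averaged 10 TPM or more. For G6pc they were Nat8f2 (r = 0.97), Car14 (0.97) and Idh1 (0.97), for Pck1 Nr1d1 (0.94), Fbxo8 (0.92) and Folh1 (0.91), and for Pcx 4833439L19Rik (0.96), Arhgap24 (0.96) and Kcnj15 (0.95). For Slc37a4 they were Gpx3 (0.94), Suox (0.93) and Depdc7 (0.92), for Fbp1 Cxxc5 (0.96), Gmpr (0.92) and Nubp2 (0.88), for Pck2 Agt (0.95), Pdk3 (0.94) and Gdpd3 (0.94), and for Khk Eid1 (0.87), Gmppb (0.86) and Acy1 (0.83). No gene appears for 2 members. Without m3 number 3 these r stayed within 0.83 to 0.98.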

How the data were processed

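Per the labels' protocols, RNA of single PTS2 tubules and of whole kidney was amplified to cDNA with the SMART-Seq V4 Ultra Low Input kit and sequenced. The authors deposited a table of TPM values, which per the submitters' processing notes rest on STAR 2.5.1b, RSEM 1.2.31 and GRCm38.p5; the annotation release and the role of each tool are not given in the sources used here. Each library sums to 1000000 TPM, so depth is unknown. The 15 libraries were grouped by their description labels.

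log2(TPM + 1) was fitted with limma 3.58.1 in R 4.3.3 with a mean-variance trend, keeping genes that averaged 1 TPM or more, with Benjamini-Hochberg adjustment at 0.05. PTS2 against whole kidney used the set as a correlated block (correlation 0.0957). The 3 sets were compared without covariates and the 4 tubule numbers with the set as a term. The fits were tested on simulated data. Alternatives were a pseudocount of 0.1, no filter, a minimum of 10 TPM, median-of-ratios and quantile scaling, mitochondrial genes left out, no or other blocks, set means, and each library left out. The block with each whole kidney library on its own was chosen after seeing the data.

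A few listed genes and a promoter motif are not reported here and were left out of the list counts. The 7 genes and the partner lists were chosen with earlier results of these data known. Named partners were Tkfc, Slc2a5, Slc2a2, Fbp2, G6pc3, Ppargc1a and, per fit, up to 4 called list genes per direction by size. Other list genes named beside a count were chosen after their values were seen. For each member the 3 genes of highest r are named. Tables and figures were made with Python 3.11.15, pandas 2.3.3 and matplotlib 3.10.9. Coordinates and promoters are from GRCm38.p6 and RefSeq.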

Additional observations from a re-analysis of the deposited data

Results flagged for a closer look

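Within each set, for the 7 genes, the 19 partners named by the rule for partners and the S2, S3 and thick ascending limb marker sums, a library was singled out when its gap to the nearest of the other 3 exceeded, as a share of the range of the set, Dixon's critical value for 4 samples. This held for 11 of 87 tests. Independent tests of items chosen without these values would give about 4.35. Some partners were chosen because they were called among the numbers in these libraries, and genes vary together across tubules. The 2 counts therefore cannot be compared as a test. Of the 11, 6 were tubule 4 of m3: Pck1 at 2375 TPM (next 1686), Slc37a4 at 623 TPM (next 461), G6pc at 256 TPM (next 121), Slc2a2 at 70.2 TPM (next 40.2), the S2 marker sum at 1024 TPM (next 446), and Pfkp, the lowest of its set at 9.41 TPM (next 28.4). In tubule 4 of m1, G6pc stood at 637 TPM (next 399.9) and the thick ascending limb marker sum at 55.0 TPM (next 10.2). In tubule 3 of m3, Hk1 stood at 10.1 TPM (next 1.68), Gcgr at 15.04 TPM (next 3.35) and the thick ascending limb marker sum at 1428 TPM (next 17.1).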

How the results depend on the processing

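The count of members called against whole kidney, 2 in the report, was 1 with a minimum of 10 TPM, where Pck2 was not tested, 1 under quantile normalization, and 1 to 2 with each library left out. Among the sets, where 1 was called, none was with no filter on low values (adjusted p of G6pc 0.0917 by limma), and 0 to 1 with each tubule left out. Among the tubule numbers, where 2 were called, none was with no filter or with no set term (G6pc 0.639, Pcx 0.129 by limma), and 1 to 2 with each tubule left out. Khk stayed higher in PTS2 under every alternative run. Pck2 changed sign under quantile normalization (0.21), and G6pc3, not called in the report, was called higher under median-of-ratios rescaling (0.21). Of the members not called, Slc37a4 also changed sign under median-of-ratios rescaling (0.27), Pck1 (−0.089), Pcx (−0.040) and Fbp1 (−0.0012) under quantile normalization, Pck1 without mitochondrial genes (−0.0095), and Pck1 (−0.080) and Pcx (−0.083) with the number as a block. Pck1, Pcx and Slc37a4 also crossed 0 with single libraries left out. The cause was not tested.

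Over all genes, 5645 were called against whole kidney, 9581 with no filter, 2725 with a minimum of 10 TPM and 6161 with each whole kidney library its own block. Of these calls 18.5% were higher in PTS2, 49.8% under median-of-ratios rescaling and 64.3% under quantile normalization. For m3 minus m1 the share higher was 70.4%, 54.5% and 52.8%. With no filter the calls fell from 341 to 196 over the sets and from 306 to none over the numbers, and with no set term to none there too.

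With the tubule number as a block, G6pc was called in all 3 contrasts of the sets (limma adjusted p = 0.0193 for m2 minus m1, 3.28e-05 for m3 minus m1 and 0.000511 for m3 minus m2), the F test over the sets called 888 genes in place of 341, and no other member's call changed in any fit. Same-numbered tubules of different sets correlated in their deviations at r from 0.025 to 0.273 (7 of 12 over 0.1), against a median of −0.023 for differently numbered tubules, and 10 of 12 tubules correlated best with their own number, a hint of shared variation. Because 5 of the 12 were not over 0.1 and the labels do not say what a number marks, the numbers were not treated as pairs. TPM keep no depth, so what depth limits could not be measured.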
